A study of Mus musculus with 12 samples.

Results

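A set of 10 genes with known roles outside the brain parenchyma were followed: 4 skin cornified envelope genes (Crct1, Lce1h, Lce1g and Lce1i), 3 genes used as mesothelial markers (Msln, Upk3b and Wt1) and 3 keratin genes of simple epithelia (Krt8, Krt18 and Krt19). They were selected by name from the 54532 genes of the deposited expression table, because Crct1, Lce1h and Msln were much higher in Ogt cKO cultures than in their control. All 10 had a row in the table. The Ogt cKO values of the 10 genes are therefore given as a description, and tests are given in the other comparisons.

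The study measured RNA of cultured astrocytes, grown from the cortex and hippocampus of C57BL/6 adults, in 12 libraries, 2 in each of 6 groups. The Ogt cKO and the cKO control were both 4 months old and untreated, and the labels give both the same genotype, Glast-CreERT2::Ogtfloxp/Y, so they are told apart by the sample descriptions alone. Glast-CreERT2 is a Cre recombinase made in cells that use the astrocyte glutamate transporter promoter and active only after tamoxifen, which the labels do not mention. Ogt encodes O-GlcNAc transferase, which adds a single sugar to proteins inside the cell. The AD model carried the 5X APP genotype and the AD control was wild type, both 6 months old by the sample labels and 5 months old by the series' design text. No promoter is named for its transgenes. The Aβ-treated cultures were wild type, 2 months old and exposed to 20 μM Aβ 1-42 for 72 h (1 sample label says 73 h), and the Aβ control was wild type, 2 months old and untreated. Cells were dissociated with trypsin and papain with no cell sort described, and nothing says that the 2 libraries of a group came from separate animals, so p-values measure the spread between libraries, which may be technical. In such bulk RNA, more cells of a type and more RNA per cell cannot be told apart.

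Cornified envelope proteins are cross-linked under the membrane of dying keratinocytes to form the barrier of the skin, and their genes lie side by side in the epidermal differentiation complex. Mesothelial cells line the body cavities, where mesothelin (Msln) and uroplakin 3b (Upk3b) sit at the cell surface and Wt1 is a transcription factor. Keratin filaments form from pairs of a type I keratin (Krt18, Krt19) and a type II keratin (Krt8), whereas the typical filament protein of astrocytes is Gfap.

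The stretch of 250 bases upstream of the start is shown for the 3 Lce1 genes, because they are adjacent near-copies whose levels in these cultures ran from none to 80.9 FPKM. FPKM counts fragments per length of gene and size of library, a scale per gene length on which levels of different genes can be set side by side. The sequences are RefSeq promoters on GRCm38.p6, read on the minus strand, at chr3:92765066-92765315 for Lce1h, chr3:92752339-92752588 for Lce1g and chr3:92778900-92779149 for Lce1i. Capitals mark ATAAAA, which begins 29 bases before the start in each.
Lce1h: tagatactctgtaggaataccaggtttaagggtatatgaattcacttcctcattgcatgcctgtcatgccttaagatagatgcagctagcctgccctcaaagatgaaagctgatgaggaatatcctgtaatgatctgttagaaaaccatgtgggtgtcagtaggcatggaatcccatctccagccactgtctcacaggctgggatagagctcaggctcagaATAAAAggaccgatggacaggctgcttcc
Lce1g: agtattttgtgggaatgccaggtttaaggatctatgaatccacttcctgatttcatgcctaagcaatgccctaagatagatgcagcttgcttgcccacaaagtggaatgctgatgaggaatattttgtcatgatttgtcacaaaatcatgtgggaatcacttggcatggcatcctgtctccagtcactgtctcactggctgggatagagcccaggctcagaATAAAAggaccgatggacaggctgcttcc
Lce1i: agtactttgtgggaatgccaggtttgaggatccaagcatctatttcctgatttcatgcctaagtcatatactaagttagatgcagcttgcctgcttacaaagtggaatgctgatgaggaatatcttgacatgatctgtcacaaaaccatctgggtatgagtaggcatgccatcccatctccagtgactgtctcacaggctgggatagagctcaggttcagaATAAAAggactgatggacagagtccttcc
Lce1h shared 84.5% of aligned bases with Lce1g and 81.3% with Lce1i, and Lce1g shared 85.6% with Lce1i. ATAAAA was found on either strand in 17.0% of the 32851 promoters of the same length in that table. Neither TGANTCA, the letters bound by AP-1 factors, nor CCACCC, letters bound by Klf factors, had a match on either strand in these 3 windows, and they were found in 6.75% and 28.1% of all promoters. The starts of Lce1g and Lce1h were 12.7 kb apart and those of Lce1h and Lce1i 13.8 kb apart, with 0 annotated genes between either pair. Of the 10 genes, 6 had a promoter in the table (the 3 Lce1 genes, Upk3b, Krt8 and Krt18). The Lce1 transcripts also share sequence with each other: 19.9% of the 50-base words of Lce1h, 17.8% of those of Lce1g and 27.1% of those of Lce1i occur in another gene, so how their reads were divided among copies is uncertain.

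Ogt, the deleted gene, was at 11.0 and 12.03 FPKM in the Ogt cKO libraries, against 20.8 and 24.7 FPKM in the cKO control. Both are whole-gene levels, with no view of the floxed exons. Ogt was as low in other libraries, at 12.4 and 10.6 FPKM with Aβ, 7.85 and 10.4 FPKM in the Aβ control and 10.0 FPKM in AD control replicate 1. Libraries held 16418852 to 18705309 reads, and 3 reads on a gene of 1 kb equal 0.145 to 0.191 FPKM.

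Crct1 (ENSMUSG00000027913, mm10, chr3:93014205-93015687, minus strand), a gene of the epidermal differentiation complex, was the most abundant of the 10. It was at 1054 and 1010 FPKM in the Ogt cKO, against 27.4 and 6.43 FPKM in the cKO control. The mean was 61.0 times higher in the Ogt cKO and the groups did not overlap. The highest Crct1 values, however, stood in untreated wild-type cultures: the Aβ control had 1498 and 1086 FPKM, both above the Ogt cKO. Crct1 was at 232 and 184 FPKM in the Aβ-treated libraries, at 81.5 and 30.0 FPKM in the AD model and at 316 and 55.1 FPKM in the AD control.

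Lce1h (ENSMUSG00000049593, chr3:92763215-92765065), a late cornified envelope gene, was at 60.2 and 80.9 FPKM (669 and 916 reads) in the Ogt cKO, against 0.0752 FPKM and 0 (1 read and none) in the cKO control. The ratio of reads, scaled to the library sizes behind the FPKM values, was 1969, with an exact 95% interval of 353 to 77826 that covers counting error only. The Aβ control, at 62.8 and 62.1 FPKM, lay within the range of the Ogt cKO. Lce1h was at 12.04 and 12.2 FPKM with Aβ, at 4.65 and 0.311 FPKM in the AD model and at 8.92 and 0.288 FPKM in the AD control.

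Lce1g (ENSMUSG00000027919, chr3:92750148-92752338), the next gene of the same family, was at 6.53 and 6.60 FPKM in the Ogt cKO and had no read in either cKO control library, which makes it at least 79.9-fold higher in the Ogt cKO (against 3 reads over the control group). Both groups of the Aβ experiment overlapped, at 7.21 and 8.47 FPKM with Aβ and 6.65 and 7.90 FPKM in the Aβ control. The AD model had 2.57 and 0.535 FPKM and the AD control 1.31 FPKM and 0. The proportion of Lce1h to Lce1g was 9.23 and 12.2 in the Ogt cKO, 1.67 and 1.44 with Aβ and 9.45 and 7.85 in the Aβ control. Lce1i (chr3:92777210-92778899), next to Lce1h on its other side, had 1 read in Aβ control replicate 2 (0.0788 FPKM) and none in the other 11 libraries.

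Msln (ENSMUSG00000063011, chr17:25748614-25754327, minus strand), a membrane-anchored glycoprotein of mesothelium, was at 83.9 and 76.6 FPKM in the Ogt cKO, against 0.427 and 0.115 FPKM in the cKO control, a mean 296 times higher in the Ogt cKO. It was again as high in the Aβ control, at 49.1 and 97.2 FPKM, a range that holds both Ogt cKO values. Msln was at 5.08 and 6.20 FPKM with Aβ, at 2.52 and 1.69 FPKM in the AD model and at 3.90 and 5.49 FPKM in the AD control. The other mesothelial genes of the set did not accompany it. Upk3b (chr5:136038496-136046487) had at most 4 reads in a library and reached 0.0652 FPKM, in Aβ control replicate 2. Wt1 (chr2:105126529-105173616) had at most 5 reads and reached 0.0476 FPKM, in Aβ-treated replicate 1.

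Krt19 (ENSMUSG00000020911, chr11:100140810-100148665, minus strand), a type I keratin, was at 83.8 and 77.1 FPKM in the Ogt cKO, against 1.40 and 0.261 FPKM in the cKO control, a mean 96.7 times higher in the Ogt cKO. The Aβ control had 80.8 and 101 FPKM and overlapped the Ogt cKO. Krt19 was at 9.48 and 11.7 FPKM with Aβ, at 12.9 and 5.15 FPKM in the AD model and at 10.5 and 1.59 FPKM in the AD control. Within the 2 Ogt cKO libraries Krt19 and Msln were at nearly equal levels, with ratios of 0.998 and 1.01.

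No type II keratin reached a level near that of Krt19. The 26 type II keratin genes of the table summed to 1.18 and 0.782 FPKM in the Ogt cKO and 1.88 and 1.17 FPKM in the Aβ control, and Krt7 was the only one of them at 1 FPKM or more in any library, with a maximum of 1.19 FPKM in AD control replicate 1. Krt8 (chr15:101996698-102004482) had no read in the Ogt cKO, the cKO control and the Aβ control, and at most 6 reads (0.173 FPKM) elsewhere. Of its 50-base words 26.9% also occur in Krt8-ps, so its few reads are uncertain. Krt18 (chr15:102028180-102032027), the usual type I partner of Krt8, was at 0.177 and 0.0868 FPKM in the Ogt cKO, against 0 and 0.0675 FPKM in the cKO control, on 2 to 4 reads. Its order across groups was unlike that of Krt19. It was highest with Aβ, at 0.822 and 0.896 FPKM (20 and 23 reads), against 0.0412 and 0.120 FPKM (1 and 3 reads) in the Aβ control, where Krt19 had its highest mean.

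**Figure D1:**
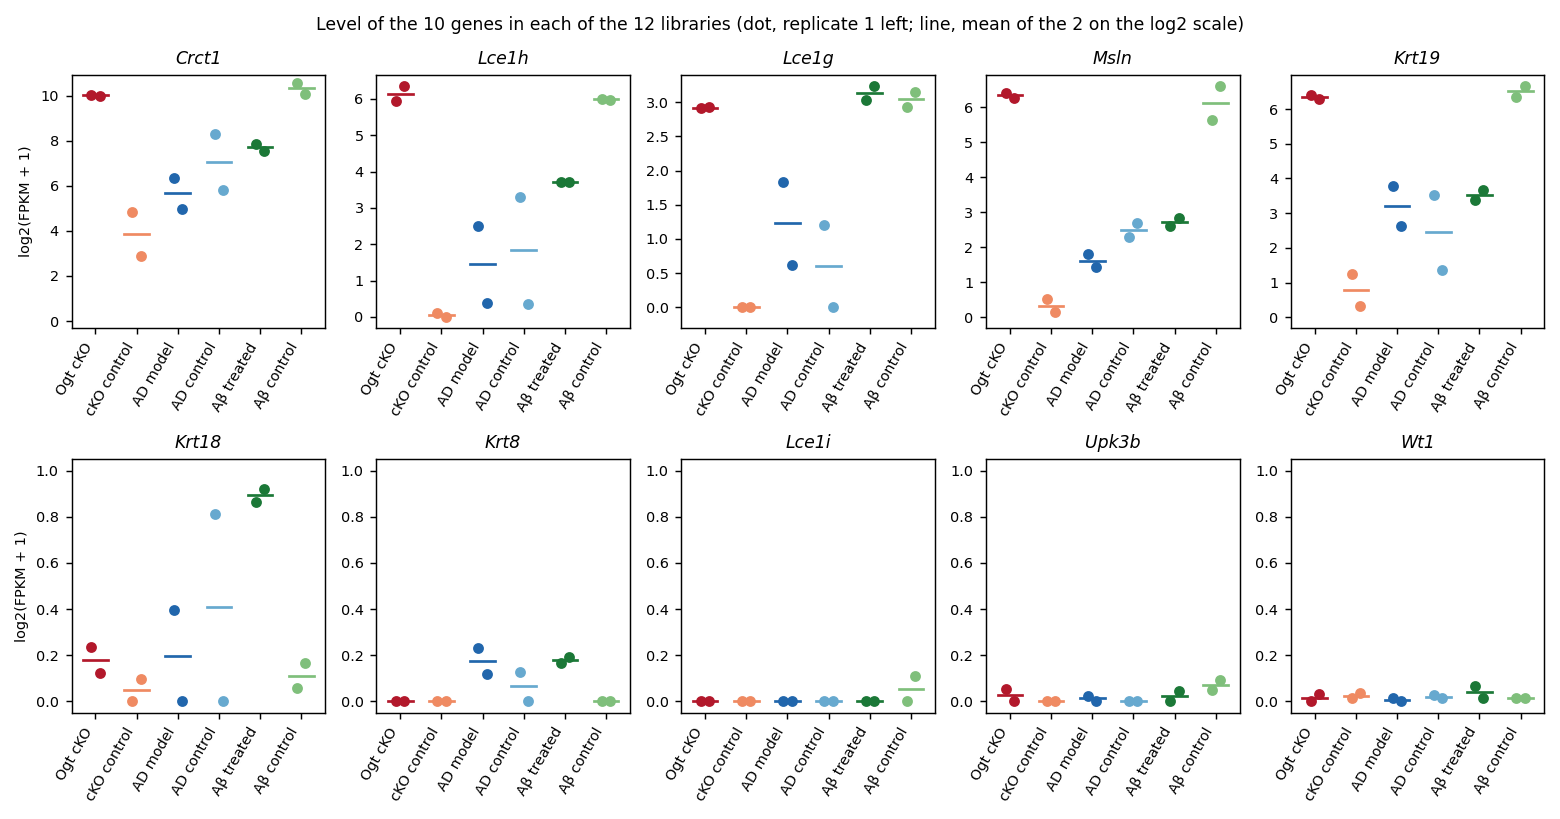
Level of each of the 10 genes in each library, as log2(FPKM + 1), with 1 dot per library and a line at the mean of the 2 libraries of a group on that scale. Crct1, Lce1h, Msln and Krt19 are high in the Ogt cKO and the Aβ control; Lce1g overlaps between the groups of the Aβ experiment; the lower row, drawn on a smaller scale, holds the 5 genes that stayed under 1 FPKM.

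Of the 10 genes, 5 (Crct1, Lce1h, Lce1g, Msln and Krt19) reached 1 FPKM in at least 2 libraries, the filter for the fit over 14014 genes, and 5 did not. In the Ogt cKO comparison the 5 had log2 changes, on the log2(FPKM + 1) scale, of 6.15 for Crct1, 6.09 for Lce1h, 2.92 for Lce1g, 6.01 for Msln and 5.55 for Krt19. Of all genes tested 42.3% were called in that comparison. The order of groups by mean level was alike for Crct1, Lce1h, Msln and Krt19: the Ogt cKO and the Aβ control were the 2 highest groups and the cKO control the lowest. Neighbours in that order often overlapped. For Lce1h, Msln and Krt19 the Ogt cKO and the Aβ control overlapped, for Crct1 and Msln the Aβ-treated and AD control groups did, and for Crct1, Lce1h and Krt19 the AD model and AD control did. The cKO control stood below every other group for those 4 genes without overlap. The set was chosen because Crct1, Lce1h and Msln were much higher in the Ogt cKO than in that control. Over the 12 libraries, Pearson's r between pairs of the 5 genes, on log2(FPKM + 1), ran from 0.762 (Lce1g with Msln) to 0.964 (Crct1 with Lce1h). The Ogt cKO and Aβ control libraries stood above all others for Crct1, Lce1h, Msln and Krt19, whereas Lce1g was as high with Aβ. What the r values rest on was not tested, and they are a description.

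The Aβ comparison asks how cultures exposed to the amyloid peptide differed from untreated ones. Of the 5 tested genes 3 fell: Msln, Krt19 and Crct1. Of all genes tested, 15.1% were called lower and 35.9% were called in either direction. Msln averaged 5.64 ± 0.788 FPKM with Aβ and 73.2 ± 34.0 FPKM in the Aβ control (SD, n = 2 each; log2 change -3.41 ± 0.30 SE, limma adjusted p = 9.3e-05), a mean 13.0 times lower. Krt19 averaged 10.6 ± 1.60 FPKM with Aβ and 91.0 ± 14.4 FPKM in the Aβ control (log2 change -2.98 ± 0.64, limma adjusted p = 0.0069), 8.58 times lower. Crct1 averaged 208 ± 33.9 FPKM with Aβ and 1292 ± 292 FPKM in the Aβ control (log2 change -2.62 ± 0.84, limma adjusted p = 0.038), 6.20 times lower. The Crct1 call was lost without any 1 of the 4 Aβ libraries (limma adjusted p = 0.0892 to 0.174) or either Ogt cKO library (0.0574 each), with no filter on low values (0.0925) and with quantile normalization (0.0579). Msln and Krt19 kept their calls in every alternative run.

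Lce1h averaged 12.1 ± 0.121 FPKM with Aβ and 62.4 ± 0.548 FPKM in the Aβ control, 5.15 times lower with no overlap (log2 change -2.27 ± 0.87), but it did not pass the test with the spread shared over all libraries (limma adjusted p = 0.070). It passed with the 4 Aβ libraries alone (limma adjusted p = 4.1e-04), without any 1 of the 4 AD libraries (0.0125 to 0.0421) and with voom on the recovered reads (0.0183). Lce1g did not pass (7.84 ± 0.892 FPKM with Aβ and 7.28 ± 0.887 FPKM in the Aβ control, log2 change 0.10 ± 0.43, limma adjusted p = 0.88), and its change was -0.03 under quantile normalization and -0.01 without Aβ-treated replicate 2 or Aβ control replicate 1. With no filter on low values, Krt8 passed on 4 and 5 reads with Aβ against none in the Aβ control (log2 change 0.18 ± 0.05, limma adjusted p = 0.039), and Krt18 did not (0.78 ± 0.24, limma adjusted p = 0.064).

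The AD comparison asks how cultures of the amyloid model differed from wild type. None of the 5 tested genes passed by limma, against 17.1% of all genes tested, and Msln alone of the 5 had an unadjusted value below 0.05. Msln averaged 2.10 ± 0.584 FPKM in the AD model and 4.69 ± 1.13 FPKM in the AD control, without overlap (log2 change -0.87 ± 0.30, limma adjusted p = 0.084). It passed without Aβ control replicate 1 or replicate 2 (limma adjusted p = 0.0290 each). Crct1 averaged 55.8 ± 36.4 FPKM in the AD model and 186 ± 185 FPKM in the AD control (log2 change -1.40 ± 0.84, limma adjusted p = 0.32), with overlapping groups. Replicates differed widely here: AD control replicate 1 had 5.74 times the Crct1, 6.62 times the Krt19 and 30.9 times the Lce1h level of replicate 2, and AD model replicate 1 had 2.71, 2.50 and 14.9 times the level of its replicate 2. The change of Krt19 (0.76 ± 0.64, limma adjusted p = 0.49) was 1.84 without AD control replicate 1, which passed (limma adjusted p = 0.041), and -0.32 without AD control replicate 2. The change of Lce1h (-0.39 ± 0.87, limma adjusted p = 0.82) was 1.08 without AD control replicate 1 and 0.66 without AD model replicate 2. Lce1g did not pass (1.55 ± 1.44 FPKM in the AD model and 0.655 ± 0.926 FPKM in the AD control, log2 change 0.62 ± 0.43, limma adjusted p = 0.38).

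The response to Aβ and the difference of the AD model were set against each other in 1 contrast of the same fit. They differed for Msln (AD effect minus Aβ effect 2.53 ± 0.43, limma adjusted p = 0.014) and Krt19 (3.74 ± 0.90, limma adjusted p = 0.045), and not for Crct1, Lce1h or Lce1g. Of all genes tested, 6.14% were called in this contrast, 1.52% as higher and 4.62% as lower. The Msln call was lost without Aβ-treated replicate 1 (limma adjusted p = 0.0647), and the Krt19 call without any 1 library other than AD model replicate 2 or AD control replicate 1 (0.062 to 0.142). Lce1h passed without AD control replicate 1 (3.35, limma adjusted p = 0.0449).

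The Aβ control and the AD control were both untreated wild-type cultures, and both held reads of all 5 tested genes, at different levels. All 5 tested genes were higher in the Aβ control, where 15.5% of all genes tested were called higher and 32.2% in either direction. Msln was 15.6 times higher (log2 change 3.64 ± 0.30, limma adjusted p = 1.8e-04), Krt19 15.0 times (4.06 ± 0.64, 0.0026), Lce1h 13.6 times (4.15 ± 0.87, 0.0086), Lce1g 11.1 times (2.44 ± 0.43, 0.0040) and Crct1 6.95 times (3.26 ± 0.84, 0.019). Crct1 lost its call without AD control replicate 2 (log2 change 2.01, limma adjusted p = 0.112), Aβ control replicate 1 (0.117) or Aβ control replicate 2 (0.0556), and Lce1h without Aβ control replicate 1 (0.0599). The change of Lce1h was 2.68 without AD control replicate 2. With the 4 control libraries alone, the calls of Crct1 and Lce1h were lost (limma adjusted p = 0.0864 and 0.0708). Crct1 also lost its call with no filter on low values (0.0535). Age and experiment differed together between these 2 groups, so they cannot be told apart, and this comparison shares its control libraries with the 2 amyloid comparisons.

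**Figure D2:**
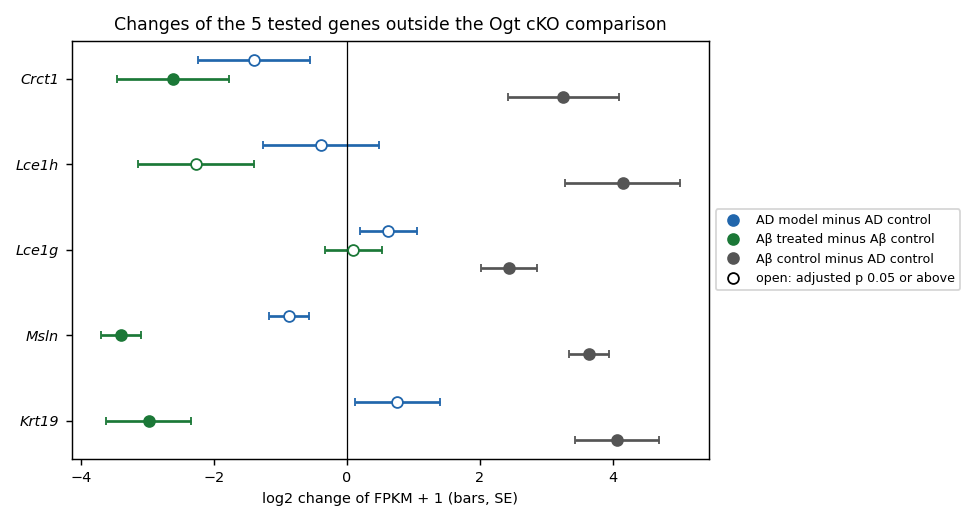
Log2 change of the 5 tested genes in the AD, Aβ and control against control comparisons, with standard errors as bars and open circles for an adjusted p of 0.05 or above. All 5 lie to the right of 0 in the Aβ control against the AD control, and Msln, Krt19 and Crct1 lie to the left with filled circles under Aβ.

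Other epithelial genes followed in part. Lists of 155 genes outside the 10 were examined (mesothelial markers, cornified envelope genes, keratins, desmosome, adhesion and junction genes, epithelial transcription and splicing factors, uroplakins), of which 37 passed the filter. In the Ogt cKO 22 of the 37 rose and 2 fell, with a median log2 change of 0.83 against -0.002 over all genes tested, where 22.6% were called higher and 19.8% lower. The count of 24 called was 9 to 12 when any 1 of the 4 libraries of that experiment was left out. With Aβ 9 rose and 13 fell (median -0.36, all genes -0.04), where 20.8% of all genes were called higher and 15.1% lower, and in the AD model 1 rose and 3 fell (median 0.07, all genes -0.02), where 9.80% and 7.27% of all genes were called higher and lower. Of the 37, Cldn6 and Kprp reached 1 FPKM in a single group of the Aβ experiment (Cldn6 with Aβ, Kprp in the Aβ control), so that their changes there were bound to the filter. Without them 8 rose and 12 fell with Aβ. The AD count of 4 was 7 to 9 without any 1 of the 4 AD libraries.

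Cornified envelope genes outside Lce1 accounted for 8 of the 22 that rose in the Ogt cKO, of 10 tested and 46 listed. Sprr1a, a small proline-rich envelope precursor, averaged 29.2 ± 2.03 FPKM in the Ogt cKO and 0.0329 ± 0.0466 FPKM in the cKO control (limma adjusted p = 0.0042). Lor (loricrin, the main protein of the envelope) averaged 12.6 ± 0.226 FPKM in the Ogt cKO and 1.26 ± 0.665 FPKM in the cKO control, and Tgm1, the transglutaminase that cross-links the envelope, 9.12 ± 1.16 FPKM in the Ogt cKO and 0.726 ± 0.398 FPKM in the cKO control. Pglyrp3, a peptidoglycan recognition protein gene of the same complex, averaged 14.7 ± 2.21 FPKM in the Ogt cKO and 0.116 ± 0.0398 FPKM in the cKO control. The 3 tested Lce1 genes outside the set (Lce1f, Lce1l and Lce1m), at 1.39 to 2.72 FPKM on average in the Ogt cKO and with no read in the cKO control, rose as well. Tchh, a hair follicle protein gene, fell (1.38 ± 0.0956 FPKM in the Ogt cKO and 3.09 ± 0.240 FPKM in the cKO control, limma adjusted p = 0.040).

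Under Aβ the same kinds of genes divided. Lor fell (3.27 ± 0.220 FPKM with Aβ and 19.2 ± 3.69 FPKM in the Aβ control, limma adjusted p = 1.4e-04), as did Pglyrp3 and Lce3c, and of the 3 Lce1 genes Lce1l and Lce1m fell. Kprp fell too, but its change was bound to the filter. Tgm1 rose (22.4 ± 0.389 FPKM with Aβ and 3.42 ± 0.418 FPKM in the Aβ control, limma adjusted p = 0.0076), as did Sprr2g. Ivl (involucrin), singled out after its values were seen, resembled Lce1g: it was at 14.3 to 14.5 FPKM in the Ogt cKO and 0 in the cKO control, and it did not pass under Aβ (10.1 to 10.8 FPKM with Aβ and 10.6 to 13.9 FPKM in the Aβ control, limma adjusted p = 0.90). None of the 10 cornified envelope genes or the 3 Lce1 genes passed in the AD model.

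Of 16 listed genes of desmosomes, the spot-like junctions of epithelia, 6 were tested, of which 4 rose and none fell in the Ogt cKO. Of the 16, 8 stayed below 0.1 FPKM in all libraries. The desmosomal cadherins Dsg3, Dsg4, Dsc1 and Dsc3 reached at most 0.0488 FPKM, whereas the cadherin Dsc2 reached 1.23 FPKM, in Aβ-treated replicate 2. Perp, a desmosomal membrane protein gene, averaged 95.8 ± 7.73 FPKM in the Ogt cKO and 13.6 ± 2.67 FPKM in the cKO control (limma adjusted p = 0.0013), and the plakophilin gene Pkp1 4.65 ± 0.600 FPKM in the Ogt cKO and 0.0365 ± 0.0380 FPKM in the cKO control. With Aβ Perp fell (22.6 ± 2.93 FPKM with Aβ and 97.8 ± 9.36 FPKM in the Aβ control, limma adjusted p = 0.0021), the only one of 6 called. Among epithelial transcription and splicing factors 3 of 4 tested (Klf4, Klf5 and Esrp2) rose in the Ogt cKO and fell with Aβ. Klf4, a Krüppel-like factor of barrier epithelia, averaged 16.9 ± 0.789 FPKM in the Ogt cKO and 4.19 ± 0.256 FPKM in the cKO control.

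Adhesion and tight junction genes went another way. None of the 7 tested passed in the Ogt cKO by limma, and Spint2 alone of those 7 had an unadjusted value below 0.05. With Aβ, where Msln, Krt19 and Crct1 fell, 6 of 7 rose. Cldn3, a tight junction claudin, averaged 22.5 ± 16.3 FPKM with Aβ and 0.162 ± 0.0297 FPKM in the Aβ control (limma adjusted p = 0.0019), and the protease inhibitor gene Spint2 averaged 6.04 ± 1.19 FPKM with Aβ and 1.94 ± 0.200 FPKM in the Aβ control. Cldn6 is among the 6 but reached 1 FPKM in the Aβ-treated libraries alone, so its rise was bound to the filter, and without it 5 of 6 rose. The sum of choroid plexus markers also differed between these libraries, at 16.2 and 26.0 FPKM with Aβ, against 2.22 and 2.32 FPKM in the Aβ control. Clic6 alone made up most of the sum with Aβ, at 15.3 and 24.9 FPKM. Of the 2 tested, Clic6 rose (20.1 ± 6.80 FPKM with Aβ and 0.980 ± 0.409 FPKM in the Aβ control, limma adjusted p = 0.0059). Ttr, the other, was at 0 in both groups. The sum of endothelial markers was higher with Aβ too, at 698 and 958 FPKM, against 261 and 320 FPKM in the Aβ control. The part of either cell type in the junction genes was not tested. Genes that define most epithelia stayed near 0 in all 12 libraries: E-cadherin (Cdh1) reached 0.272 FPKM, Epcam 0.156, the basal keratins Krt5 and Krt14 0.0510 and 0.0322, the epidermal factor gene Trp63 0.0539, and the epithelial regulators Grhl2 and Esrp1 0.0638 and 0.0168 FPKM.

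Levels of mesothelial markers ran from near 0 in every library to 158 FPKM (Pdpn in Ogt cKO replicate 1). Of the 15 listed outside the set, 2 stayed below 0.1 FPKM in all libraries. Gata6 and Krt7 passed the filter but reached only 2.42 and 1.19 FPKM. Beside Wt1 and Upk3b, Lrrn4 reached 0.0155 FPKM, Muc16 0.00429 and Bnc1 0.114 FPKM in any library, and 6 of the 15 listed markers passed the filter. Of those 6, Nkain4, Pdpn, Podxl and Gata6 rose in the Ogt cKO and Gpm6a fell, whereas Krt7 did not pass. Pdpn, podoplanin, averaged 149 ± 13.3 FPKM in the Ogt cKO and 57.3 ± 4.63 FPKM in the cKO control, and 41.9 ± 17.4 FPKM with Aβ and 122 ± 18.9 FPKM in the Aβ control. Podxl, podocalyxin, averaged 7.96 ± 0.149 FPKM in the Ogt cKO and 2.05 ± 0.934 FPKM in the cKO control, but rose with Aβ, at 40.2 ± 2.97 FPKM with Aβ and 9.29 ± 3.22 FPKM in the Aβ control. Nkain4, a gene of a sodium pump-interacting protein, averaged 53.6 ± 11.0 FPKM in the Ogt cKO and 4.05 ± 1.24 FPKM in the cKO control (limma adjusted p = 3.5e-04), 2.30 ± 0.316 FPKM with Aβ and 66.7 ± 0.993 FPKM in the Aβ control (2.2e-05), and 1.20 ± 0.884 FPKM in the AD model and 9.92 ± 1.66 FPKM in the AD control (7.7e-04). Gpm6a, a membrane glycoprotein gene also used by neurons and glia, averaged 2.33 ± 0.143 FPKM in the Ogt cKO and 37.0 ± 10.2 FPKM in the cKO control.

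**Figure D3:**
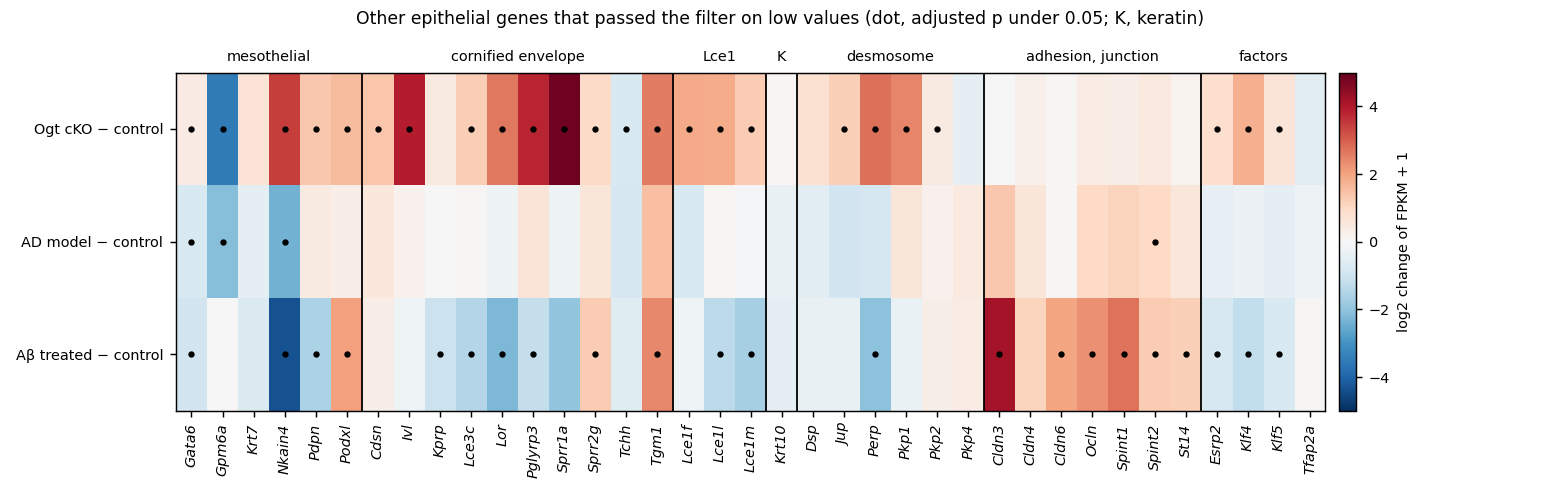
Log2 change of the epithelial list genes that passed the filter, in 3 comparisons as rows, with red for higher and blue for lower in the Ogt cKO, AD model or Aβ-treated cultures and a dot for an adjusted p under 0.05. Cornified envelope, Lce1 and desmosome genes are mostly red in the Ogt cKO; adhesion and junction genes are pale there and red under Aβ.

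Genes around Crct1 on the chromosome were examined as well. Within 1 Mb of its start 117 genes were annotated in the table, 66 of them protein-coding, and 15 of those passed the filter, 3 of the set among them. Of the 12 others 9 rose and 1 fell in the Ogt cKO, none passed in the AD model and 7 fell with Aβ, none rising (6 of 11 without Kprp). Over all genes tested 22.6% were called higher in the Ogt cKO and 15.1% lower with Aβ. Most of these neighbours are cornified envelope and Lce1 genes already counted above, 7 of the 9 that rose and 5 of the 7 that fell. Sprr2g, annotated as a polymorphic pseudogene and so left out of these counts, also passed the filter and lay within 1 Mb. It rose with Aβ (log2 change 1.27, limma adjusted p = 0.0145) and in the Ogt cKO (0.95, limma adjusted p = 0.042). Of the 66 protein-coding genes there, 18 (27.3%), Lce1g among them, had no read in the cKO control and some in the Ogt cKO, and 0 had the reverse. The 18 include neighbours already counted as rising. Some of them rest on very few reads, with means as low as 0.00284 FPKM in the Ogt cKO. Over all 22046 protein-coding genes 4.2% had reads in the Ogt cKO alone and 3.17% in the cKO control alone. The calcium-binding protein genes S100a11 and S100a10, which many cell types use, lay 505 and 539 kb from Crct1 and were among those that rose in the Ogt cKO (limma adjusted p = 0.0040 and 0.0053) and fell with Aβ (-0.99 and -1.51, limma adjusted p = 0.018 and 0.0097). Both were named after their values were seen.

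**Figure D4:**
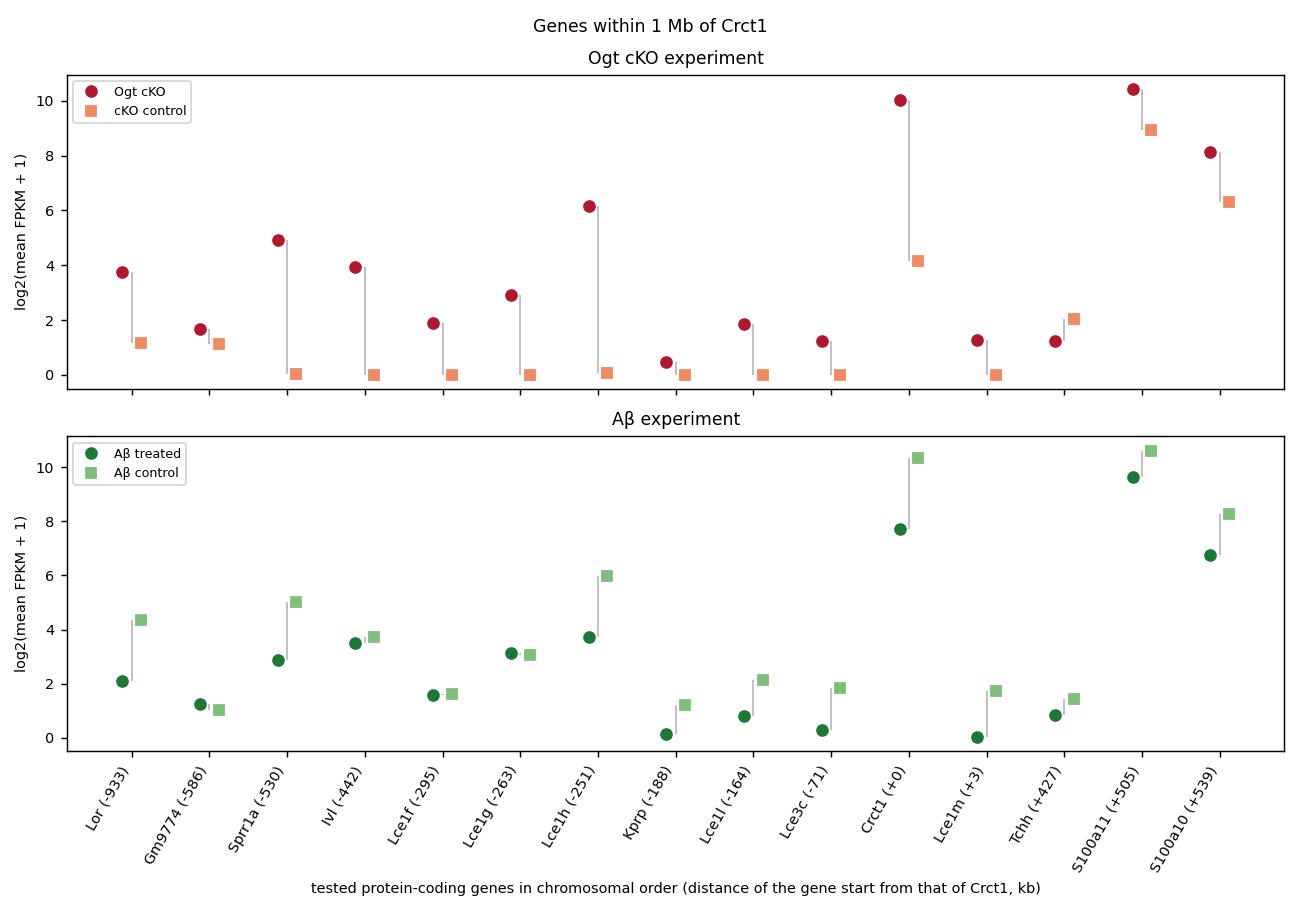
Group means as log2(mean FPKM + 1) of the tested protein-coding genes within 1 Mb of Crct1, in chromosomal order, for the Ogt cKO and its control (upper) and the Aβ-treated and Aβ control cultures (lower). In the upper panel 9 of 12 genes outside the set rose in the Ogt cKO, and in the lower panel 7 of 12 fell with Aβ.

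Markers of other cell types moved in the same libraries. The counts of calls per list, here and below, stand beside these shares of all genes tested. In the Ogt cKO 22.6% were called higher and 19.8% lower, with Aβ 20.8% and 15.1%, and in the AD model 9.80% and 7.27%. The summed level of 9 pericyte and smooth muscle markers was 4028 and 4076 FPKM in the Ogt cKO, against 505 and 1011 FPKM in the cKO control, and 5 of 8 tested rose and none fell. It was 421 and 488 FPKM with Aβ, against 3602 and 4104 FPKM in the Aβ control (7 of 8 fell), and 210 and 759 FPKM in the AD model, against 1720 and 3843 FPKM in the AD control (6 of 8 fell). Acta2, smooth muscle actin, made up most of that sum, with a mean of 3594 FPKM in the Ogt cKO. The sum of 10 astrocyte markers was 95.5 and 109 FPKM in the Ogt cKO, against 423 and 479 FPKM in the cKO control, with 7 of 10 lower and none higher. It was 234 and 249 FPKM in the AD model, against 376 and 456 FPKM in the AD control. Both groups of the Aβ experiment were low in it, at 79.1 and 168 FPKM with Aβ, against 112 and 119 FPKM in the Aβ control. The sum of 8 endothelial markers was 262 and 275 FPKM in the Ogt cKO, against 42.6 and 52.6 FPKM in the cKO control, with 7 of 8 higher, and 6 of 8 were higher with Aβ.

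Leptomeningeal markers, of the inner membranes around the brain, did not rise together in the Ogt cKO (2 of 10 tested rose, Crabp2 and Aldh1a2, and 3 fell; sum 179 and 188 FPKM in the Ogt cKO, against 224 and 232 FPKM in the cKO control) and fell with Aβ (8 of 10; 36.3 and 43.6 FPKM with Aβ, against 212 and 214 FPKM in the Aβ control). Fibroblast markers summed to 1191 and 1218 FPKM in the Ogt cKO, against 890 and 1028 FPKM in the cKO control, with 1 of 8 tested lower and none higher. They summed to 286 and 483 FPKM with Aβ, against 784 and 1006 FPKM in the Aβ control. There 3 of 8 fell and 1, Dcn, rose (mean 114 FPKM with Aβ and 8.84 FPKM in the Aβ control, limma adjusted p = 0.010). Arachnoid barrier markers summed to 58.4 and 64.3 FPKM in the Ogt cKO, against 30.6 and 42.4 FPKM in the cKO control, with 3 of 6 tested higher and 1 lower. Microglia and macrophage markers summed to 2914 and 3893 FPKM in the Ogt cKO, against 6436 and 8373 FPKM in the cKO control (4 of 9 fell), and to 4328 and 5731 FPKM with Aβ, against 2114 and 3534 FPKM in the Aβ control (2 rose and 2 fell). Lyz2, named for its level, made up most of these sums and was called in neither comparison. Oligodendrocyte markers summed to 38.3 and 40.4 FPKM in the Ogt cKO, against 137 and 271 FPKM in the cKO control (5 of 8 fell), and to 149 and 281 FPKM with Aβ, against 34.1 and 46.0 FPKM in the Aβ control (6 of 8 rose). Neuron markers summed to 185.5 FPKM at most and ependymal markers to 16.5 FPKM in any library. None of the markers of the pericyte, astrocyte, endothelial and fibroblast lists was at 0 in all libraries, and the part of these cell types in the levels of the 10 genes was not tested.

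**Figure D5:**
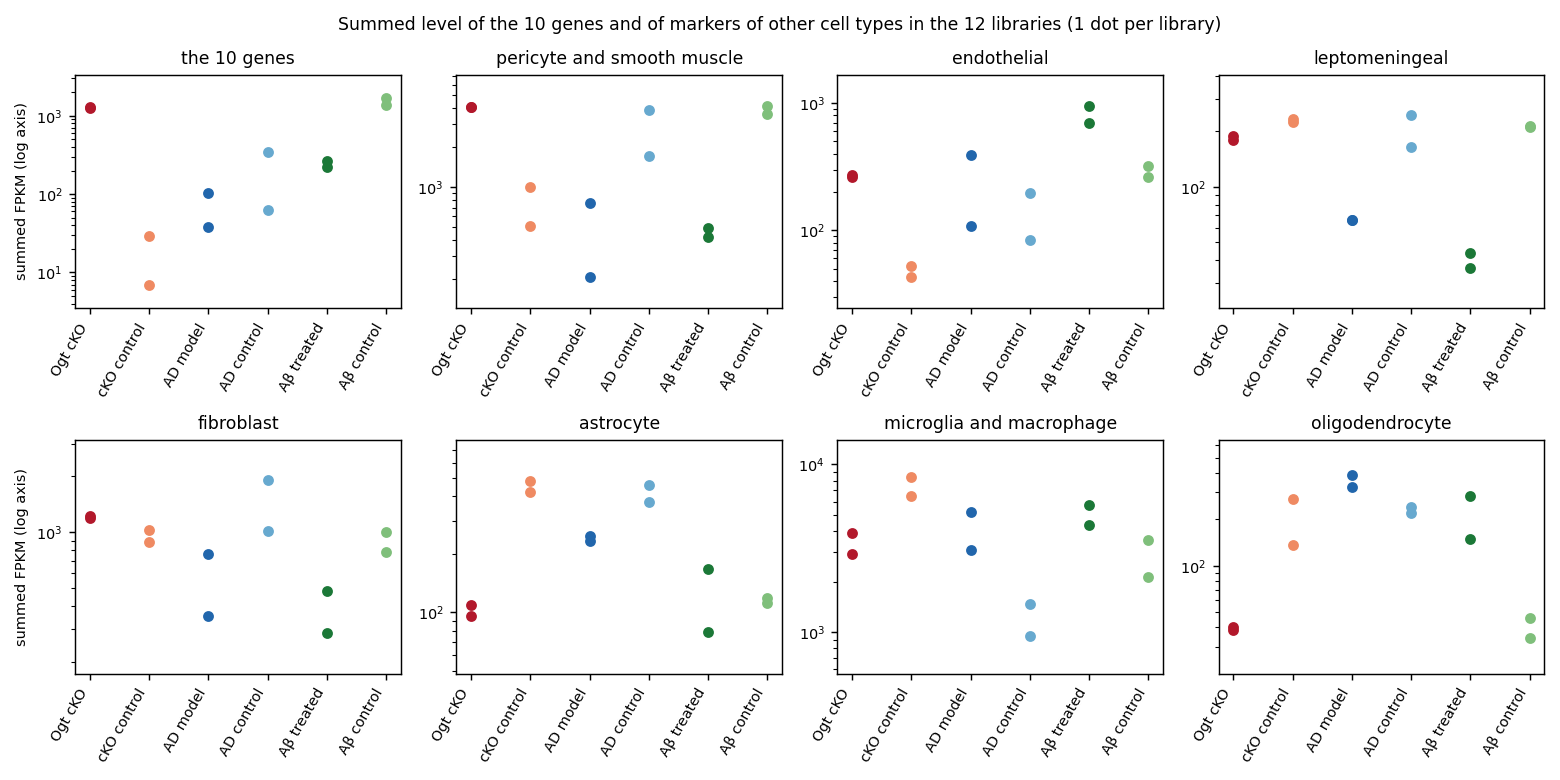
Summed FPKM, on a log axis, of the 10 genes and of marker lists of 7 cell types, with 1 dot per library. The sums of the 10 genes and of the pericyte and smooth muscle markers are both high in the Ogt cKO and the Aβ control, and the pericyte and smooth muscle sum is also high in the AD control. Crct1 makes up most of the sum of the 10 genes.

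The genes whose level over the 12 libraries was most like that of the 5 were mostly expressed in every library. By Pearson's r on log2(FPKM + 1), Crct1 was most like Timm17a (0.987), Ehbp1l1 (0.986) and Tnfrsf10b (0.984), Lce1h like Rps3, Mrpl54 and Cct3 (0.988 each), and Krt19 like Cct8 (0.991), Rrm1 (0.988) and Thg1l (0.986). Msln was most like Rabepk (0.971), Nle1 (0.969) and Klf4 (0.969), and Lce1g like Slc9a2 (0.993), Sncg (0.991) and Klra4 (0.988). Many genes came close: 343 had an r over 0.95 with Lce1h, 223 with Krt19, 139 with Crct1, 58 with Lce1g and 17 with Msln. The libraries share their contrasts between groups, and these values describe likeness over 12 libraries only.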

How the data were processed

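RNA of cultured astrocytes was measured in 12 libraries, 2 per group. The authors deposited FPKM values, which adjust fragments for the length of a gene and the size of a library, in 1 table of 54532 genes with their coordinates. The build is mm10 per the submitters' processing notes; the sources used here do not give the aligner, counter, annotation release, strand setting or treatment of multiply mapped reads. Reads per gene were recovered from FPKM times length, which came in whole steps in each library (within 0.1 of a read). The library size behind the FPKM values was not the total of recovered reads, for example 1.57e+07 against 17272790 in Ogt cKO replicate 1.

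Genes that reached 1 FPKM in 2 or more libraries (14014, 5 of the 10 followed) were fitted with limma 3.58.1 (R 4.3.3) on log2(FPKM + 1), with an intensity trend and group means, over all 12 libraries, which share 1 spread (6 residual degrees of freedom). Tests are two-sided, with Benjamini-Hochberg adjustment over all genes tested and a threshold of 0.05; the fit was tested on simulated data, where the share of false calls was somewhat above the threshold. An exact permutation test of 2 against 2 cannot go below p = 0.333. Fold changes on the log2(FPKM + 1) scale understate low genes. Intervals and floors cover counting error only.

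The 10 genes and all lists were chosen with earlier results of these data known. Named genes outside the 10 are mainly, per list and comparison, up to 4 called with the smallest p, the gene at the highest level in a list with none called, and the 3 most like each followed gene. Others, among them Tchh, Lce3c and Sprr2g, were named for their level or direction, and not all of these are marked. Sequences are from RefSeq; shared 50-base words were counted over GENCODE M21 transcripts. Alternatives were other pseudocounts, filters and scalings, voom on recovered reads, the replicate number as a block, fits of the compared libraries alone, and leaving out each library.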

Additional observations from a re-analysis of the deposited data

Results flagged for a closer look

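The AD effect and the Aβ effect differed for 2 of the 5 tested genes, by a contrast of the same fit. The 2 effects start from unlike controls: the mean of the Aβ control was 15.6 times that of the AD control for Msln and 15.0 times for Krt19. Age and experiment also differed together, and what the difference of effects rests on was not tested. For Msln the AD effect minus the Aβ effect was 2.53 ± 0.43 on the log2 scale (limma adjusted p = 0.014; -0.87 in the AD comparison and -3.41 with Aβ). For Krt19 it was 3.74 ± 0.90 (limma adjusted p = 0.045; 0.76 in the AD comparison and -2.98 with Aβ). Both calls were lost with a pseudocount of 0.1 (limma adjusted p = 0.0556 for Msln and 0.094 for Krt19) and with the 8 amyloid libraries alone (0.060 and 0.113). Msln also lost its call without Aβ-treated replicate 1 (0.0647) and with voom (0.0522), and Krt19 without any 1 library other than AD model replicate 2 or AD control replicate 1 (0.062 to 0.142).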

How the results depend on the processing

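With 2 libraries per group, which calls pass depends on the shared spread. Counts of all genes called were 278 with the 4 AD libraries alone (2392 in the fit of 12) and 1032 with the 4 control libraries alone for the Aβ control against the AD control (4507 in the fit of 12). When 1 library was left out they ran from 1857 to 6801 (Ogt cKO), 1872 to 2421 (AD), 2674 to 5856 (Aβ) and 1525 to 5490 (Aβ control against AD control). Of the 5 tested genes, 0 to 1 were called in AD, 2 to 4 with Aβ and 3 to 5 in the Aβ control against the AD control when 1 library was left out, and 3 in the last with its 4 libraries alone. The difference of effects was called for 0 (pseudocount 0.1, or the 8 amyloid libraries alone) or 1 (pseudocount 0.5, no filter, quantile normalization, voom) and for 0 to 3 when 1 library was left out. Of the epithelial list genes 9 to 26 (Ogt cKO), 4 to 9 (AD) and 19 to 24 (Aβ) were called when 1 library was left out, 14 (Ogt cKO) and 12 (Aβ) with a 5 FPKM filter, which leaves fewer genes, and 0 in AD with its 4 libraries alone. Scaling to total reads shifted the median of all genes by -0.19 in the Ogt cKO and left 35.5% of calls higher, against 53.3%; that share was 33.5%, against 48.1%, for the Aβ control against the AD control, and 47.4%, against 58.01%, for Aβ with quantile normalization. Changes that turned sign in at least 1 alternative were Lce1g with Aβ (-0.028 with quantile normalization; -0.014 to 0.21 when 1 library was left out), Lce1h in AD (-1.87 to 1.08 when 1 library was left out), Krt19 in AD (-0.32 to 1.84) and, in the difference of effects, Crct1 (-0.031 to 2.47) and Lce1g (-0.082 to 1.14). The deposited values had the same median-of-ratios factor (1.01) in all libraries, so scaling by it changed nothing between libraries and tests nothing. Genes under 1 FPKM rest on few reads. Where no cause is given, the cause was not tested.

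The replicate numbers are shared between groups, but nothing says that they pair cultures, and the replicate differences correlated at 0.03 (Ogt cKO), 0.55 (AD) and -0.17 (Aβ) across genes. With the replicate block, 2 of the 5 tested genes were called in AD (Msln, adjusted p = 0.046, and Lce1g, 0.012), 4 with Aβ, 5 in the Aβ control against the AD control and 3 in the difference of effects, and 10 epithelial list genes in AD. With the pairing of the Aβ libraries crossed, an alternative chosen after seeing the data, 6708 genes were called with Aβ, against 6098 with the numbers as given.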
